A study of Zea mays with 12 samples.

Results

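A set of 39 maize genes, of 39423 gene models measured, had a high transcript level in the maternal transfer zone (MATZ) at 8 days after pollination (DAP) and a low level there later and across the tissue border at the same age. MATZ is the maternal tissue at the base of the kernel. The tissue facing it is the basal endosperm transfer layer (BETL), the outermost endosperm. The members were chosen from group means of the 2 libraries in FPKM (fragments mapped to a transcript, scaled to its length and to the size of the library), with 1 added to each mean before ratios were taken. A member had a MATZ 8 DAP mean of at least 30 FPKM and at least 4 times the means of MATZ at 14 DAP, MATZ at 20 DAP and BETL at 8 DAP. Its MATZ level was also under 4 times the BETL level at 14 or 20 DAP, and its BETL level at 20 DAP under 3 times that of MATZ. A pair of genes was left out by name: GRMZM2G326707 would have met the rule, and GRMZM2G453805 would not, with means of 1350.5 FPKM at 8 DAP and 473 at 14 DAP in MATZ.

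RNA came from kernels of wild-type plants of the inbred W22, grown in the field, and the tissues were cut apart while frozen. MATZ was sampled at 8, 14 and 20 DAP and BETL at the same 3 ages, with 2 libraries in each of the 6 groups and 12 libraries in all. The labels name no separate plants or ears behind the 2 libraries of a group, and p-values measure a spread that may be technical. A dissected piece holds several cell types, and in such a bulk sample fewer cells of a type and less RNA per cell cannot be told apart.

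As background, sugars and other nutrients leave the maternal phloem in the pedicel and pass through the placento-chalazal cells before they reach the endosperm, since no vessels cross from the mother to the seed. In maize the nucellus, the maternal tissue that first surrounds the endosperm, is consumed early as the endosperm grows, and placento-chalazal cells near the endosperm die in an ordered way during early kernel growth. No member carries a descriptive gene name: 17 of 39 match a RefSeq gene record, all under a locus number alone, and the sources used here give no role for any member. None of the 9 gene lists searched by symbol (cell division, cell death and proteases, defence, wall, flavonoid, lipid transfer, hormone, transporter and transcription factor genes) holds a member. With no descriptive names, a search by symbol could not have found any of them, so the lists say nothing about the members.

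The 39 members fell into 2 kinds by their MATZ libraries at 8 DAP. In 27 of them the transcript was found in both libraries, and in 24 of these at 30 FPKM or more in both. The other 12 were listed at 0 in replicate 1 and stood at 61.3 to 175 FPKM in replicate 2 (median 109), so that their place in the set rests on 1 library. No member was at 0 in replicate 2. In the 27 genes both MATZ libraries at 8 DAP lay above the later MATZ libraries. Of these 27, 3 were under 30 FPKM in 1 library, down to 4.74 FPKM for GRMZM2G065157 in replicate 1. For the 12 the early peak was seen in 1 library of the pair.

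**Figure D1:**
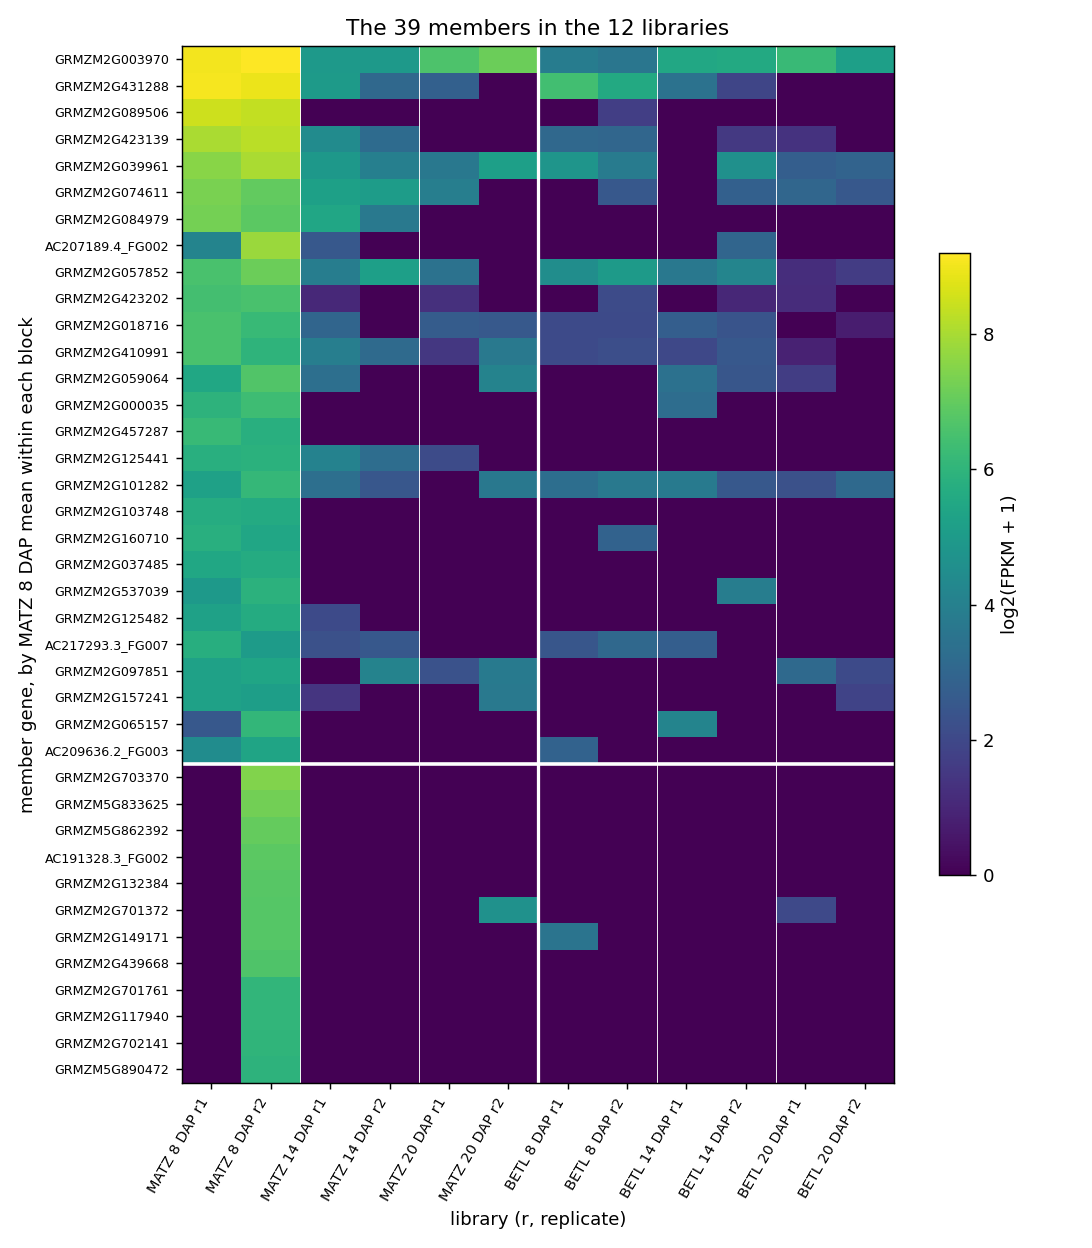
Level of each member as log2(FPKM + 1) (colour) in each of the 12 libraries (columns, MATZ left and BETL right, ages from 8 to 20 DAP). The 27 rows above the horizontal line are above 0 in both MATZ libraries at 8 DAP, and the 12 rows below it are at 0 in replicate 1.

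Together the members took up 0.427% of all FPKM in replicate 1 and 0.584% in replicate 2 of MATZ at 8 DAP. Their sum was 3198 and 4871 FPKM in these libraries, of which the 27 genes gave 3198 and 3617 and the 12 genes 0 and 1254. In MATZ the sum over all members was then 275 and 183 FPKM at 14 DAP, with 157 and 268 at 20 DAP. In BETL it was 191 and 153 FPKM at 8 DAP, 129 and 138 at 14 DAP, with 110 and 63.3 at 20 DAP. These sums follow from the rule and describe the set without testing it.

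**Figure D2:**
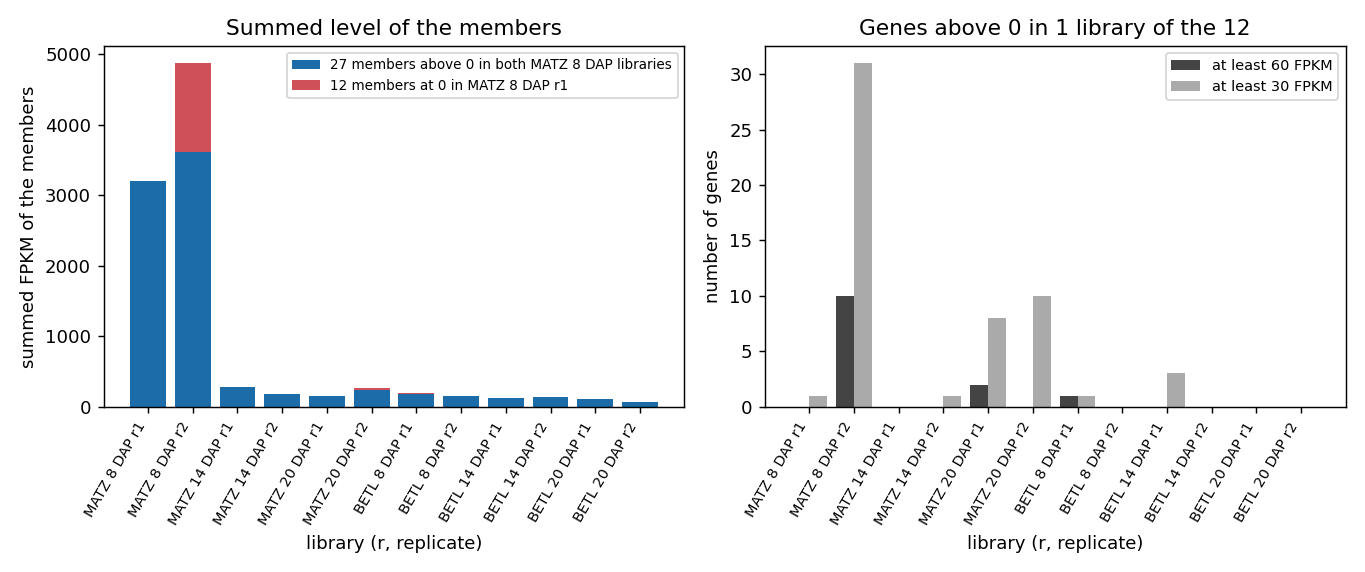
Left, summed FPKM of the members in each library, split into the 27 genes found in both MATZ libraries at 8 DAP and the 12 at 0 in replicate 1. Right, number of genes that are above 0 in 1 library alone, at 60 FPKM or more and at 30 FPKM or more; MATZ 8 DAP replicate 2 holds 10 and 31 of them.

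The highest levels belonged to a few genes. GRMZM2G003970 (LOC100193759; chromosome 4, 21221045 to 21222058, forward strand) led the set, at rank 125 of all gene models by MATZ 8 DAP mean. It stood at 527 and 585 FPKM in MATZ at 8 DAP, 30.4 and 29.7 at 14 DAP, with 98.8 and 138 at 20 DAP. In BETL it stood at 13.6 and 11.2 FPKM at 8 DAP, 44.9 and 46.6 at 14 DAP, with 74.8 and 35.6 at 20 DAP. This gene was thus present in all 12 libraries, lowest in BETL at 8 DAP, and at 14 DAP its BETL libraries were above its MATZ libraries.

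GRMZM2G431288 (chromosome 7, 121600705 to 121602931, forward strand) stood at 532 and 488 FPKM in MATZ at 8 DAP, 31.6 and 7.59 at 14 DAP, with 6.07 and 0 at 20 DAP. In BETL it stood at 84.4 and 47.1 FPKM at 8 DAP, 9.92 and 2.76 at 14 DAP and 0 in both libraries at 20 DAP. Its level was therefore highest at 8 DAP in both tissues, with the MATZ mean 7.65 times that of BETL on the mean + 1 scale. Among the 27 genes found in both MATZ 8 DAP libraries, 4 had a BETL 8 DAP mean at least 4 times both later BETL means (with 1 added). They were this gene, GRMZM2G423139, GRMZM2G160710 and AC209636.2_FG003. The last 3 had BETL levels of at most 7.58 FPKM in any library, so GRMZM2G431288 was the highest of the 4 in BETL at 8 DAP. Of the 12 other members, GRMZM2G149171 also met this, at 10.6 and 0 FPKM in BETL at 8 DAP and 0 in BETL later, so through 1 library.

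GRMZM2G089506 (LOC100382179; chromosome 9, 41671210 to 41673935, forward strand) stood at 355 and 323 FPKM in MATZ at 8 DAP and at 0 in 9 of the other 10 libraries, with 2.25 FPKM in BETL 8 DAP replicate 2. No fold is given against groups listed at 0. Among members that were at 0 in all 4 later MATZ libraries it had the highest level.

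**Figure D3:**
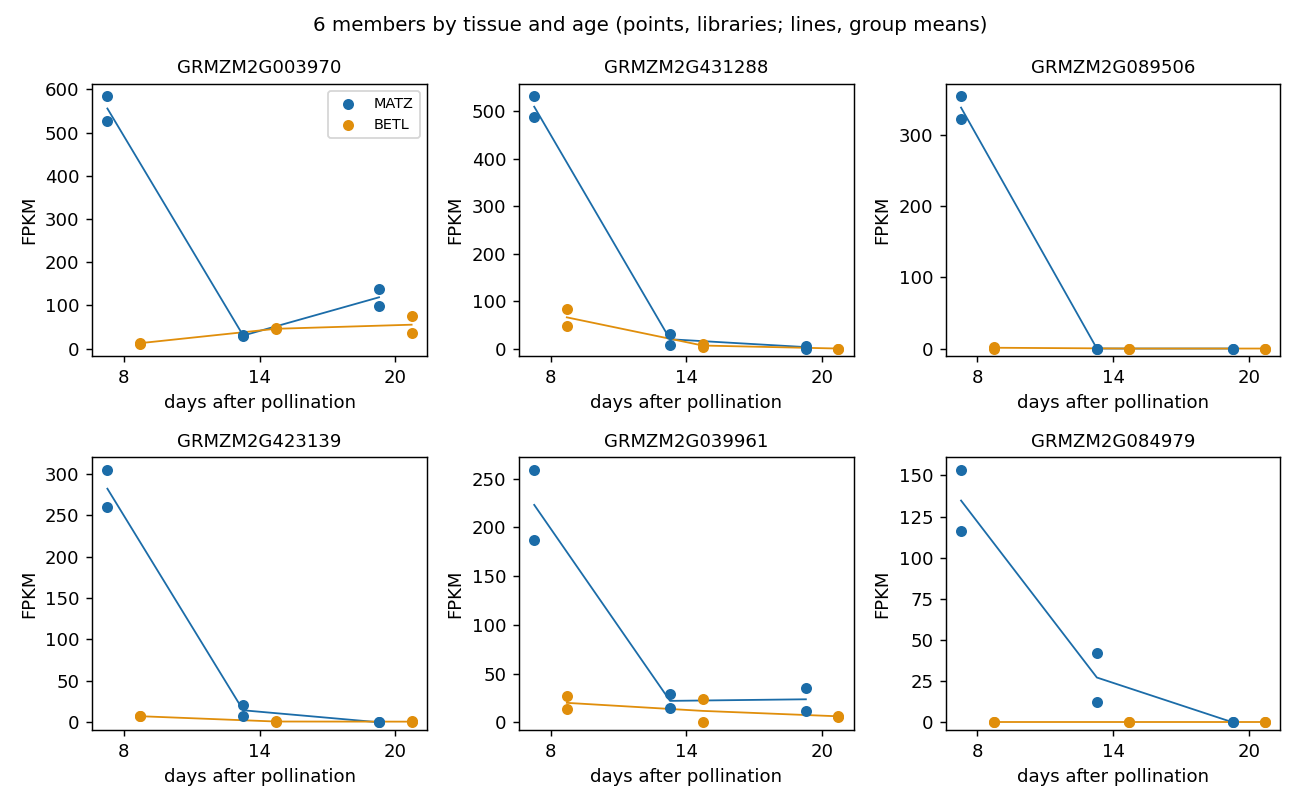
FPKM of 6 members in MATZ and BETL at 8, 14 and 20 days after pollination; points are libraries and lines join group means. GRMZM2G003970 and GRMZM2G039961 keep a level in MATZ at 20 DAP, while GRMZM2G089506, GRMZM2G423139 and GRMZM2G084979 are at 0 there in both libraries.

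The 27 genes found in both 8 DAP libraries divided by how long a level remained in MATZ. In 9 of them all 4 later MATZ libraries were at 0. In 5 the transcript was listed in at least 1 library at 14 DAP and at 0 in both at 20 DAP, and in 13 it was listed in at least 1 library at 20 DAP. The median of the 27 group means in MATZ was 70.2 FPKM at 8 DAP and 3.49 at 14 DAP, and it was 0 at 20 DAP. In BETL it was 1.12, 2.89 and 0 FPKM at these ages.

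Of the 9 that were at 0 at both later ages in MATZ, 3 were at 0 in every BETL library as well, so that the 2 MATZ libraries at 8 DAP were the only ones to list them. GRMZM2G457287 (chromosome 4, 1992637 to 1995216) stood at 72.0 and 55.4 FPKM in those libraries. GRMZM2G103748 (chromosome 3, 27956253 to 27956878) stood at 50.1 and 48.3 FPKM and GRMZM2G037485 (LOC100382367; chromosome 9, 100740103 to 100741586) at 43.5 and 48.9 FPKM. The replicates of these 3 genes lay close together, and 0 in the other 10 libraries is a listed value that does not show absence at this depth.

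The other members of that kind had a trace in 1 BETL library each. GRMZM2G000035 stood at 60.2 and 80.2 FPKM in MATZ at 8 DAP and at 8.63 in BETL 14 DAP replicate 1. GRMZM2G160710 stood at 55.2 and 42.7 FPKM, and at 6.36 in BETL 8 DAP replicate 2. GRMZM2G537039 stood at 30.02 and 59.4 FPKM, and at 13.8 in BETL 14 DAP replicate 2. In each the second library of the BETL group was at 0, so these traces have no replicate behind them. AC209636.2_FG003 stood at 21.4 and 40.03 FPKM in MATZ at 8 DAP and 6.39 in BETL 8 DAP replicate 1. GRMZM2G065157 (LOC100274938) stood at 4.74 and 66.5 FPKM in MATZ at 8 DAP and 16.6 in BETL 14 DAP replicate 1. Its MATZ replicate 1 was therefore under that BETL library, and the rule counts it only through replicate 2.

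Of the 5 genes that remained at 14 DAP and were at 0 at 20 DAP in MATZ, GRMZM2G423139 (LOC109939414; chromosome 5, 2923164 to 2924447, reverse strand) was the highest. It stood at 259 and 305 FPKM at 8 DAP, with 20.8 and 8.19 at 14 DAP, in MATZ. Its BETL values were 7.58 and 7.12 FPKM at 8 DAP, 0 and 1.85 at 14 DAP, with 1.56 and 0 at 20 DAP, low at every age. GRMZM2G084979 (chromosome 8, 166617400 to 166618265, forward strand) stood at 153 and 116 FPKM at 8 DAP, with 42.3 and 12.1 at 14 DAP, in MATZ, and at 0 in all 6 BETL libraries. In GRMZM2G125482 (LOC100281181) the values were 37.7 and 49.9 FPKM at 8 DAP, with 3.22 and 0 at 14 DAP, in MATZ, and 0 in all BETL libraries. The long gene model AC217293.3_FG007, which spans 6216 bp, stood at 53.8 and 32.1 FPKM at 8 DAP, with 3.88 and 4.79 at 14 DAP, in MATZ. Its BETL levels were of the same order as its 14 DAP MATZ levels, at 4.53 and 7.70 FPKM at 8 DAP and 5.79 and 0 at 14 DAP.

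AC207189.4_FG002 (chromosome 6, 130924920 to 130925195, reverse strand), the fifth of these, had 16.7 and 224 FPKM in MATZ at 8 DAP, the widest gap between replicates among the 27 genes apart from GRMZM2G065157. It overlaps the model GRMZM2G317426 on the opposite strand, whose means in MATZ were 24.5 FPKM at 8 DAP, 4.86 at 14 DAP and 0 at 20 DAP. The sources used here do not say whether the libraries kept the strand, so reads of this pair cannot be told apart. The only other overlap was between GRMZM2G410991 and GRMZM2G110616, which was at 0 in both MATZ libraries at 8 DAP.

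Among the 13 genes that were still listed at 20 DAP in MATZ, GRMZM2G039961 (LOC100275320; chromosome 2, 4571600 to 4572586) kept a low level in both tissues. It stood at 187 and 259 FPKM in MATZ at 8 DAP, 29.1 and 14.8 at 14 DAP, with 11.8 and 35.4 at 20 DAP. Its BETL values were 26.7 and 13.2 FPKM at 8 DAP, 0 and 23.4 at 14 DAP, with 5.75 and 6.52 at 20 DAP. The MATZ values at 14 and 20 DAP overlap each other and, at 14 DAP, those of BETL.

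GRMZM2G074611 (LOC100285450; chromosome 9, 16431553 to 16432649, reverse strand) stood at 162 and 125 FPKM at 8 DAP, 36.3 and 32.5 at 14 DAP, then 14.1 and 0 at 20 DAP in MATZ, with at most 7.22 FPKM in any BETL library. GRMZM2G057852 (LOC100274242; chromosome 2, 183197099 to 183198186) stood at 94.1 and 140 FPKM at 8 DAP, 14.02 and 35.7 at 14 DAP, with 10.2 and 0 at 20 DAP in MATZ. Its BETL values were 21.8 and 31.2 FPKM at 8 DAP, 11.7 and 17.3 at 14 DAP, with 1.30 and 2.13 at 20 DAP. This gene had the smallest gap between the tissues at 8 DAP of all members, 4.28-fold on the mean + 1 scale, and at 14 DAP the values of the tissues overlapped.

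Some genes of this kind were low in MATZ at 20 DAP. GRMZM2G423202 (chromosome 3, 208969066 to 208971846) stood at 86.2 and 93.6 FPKM in MATZ at 8 DAP and at no more than 3.29 FPKM in any of the other 10 libraries. GRMZM2G018716 (LOC100279283) stood at 92.2 and 71.7 FPKM at 8 DAP, 6.98 and 0 at 14 DAP, with 5.34 and 4.86 at 20 DAP in MATZ. GRMZM2G125441 (LOC100281625) stood at 55.4 and 57.2 FPKM at 8 DAP, 15.9 and 8.78 at 14 DAP, with 3.25 and 0 at 20 DAP in MATZ. The last of these was at 0 in all BETL libraries, which held for 6 of the 27 genes.

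In others the later levels were uneven between replicates. GRMZM2G410991 (LOC100384051) stood at 93.2 and 62.3 FPKM at 8 DAP, 14.1 and 7.97 at 14 DAP, with 1.82 and 12.1 at 20 DAP in MATZ. GRMZM2G059064 (LOC103640885) stood at 43.2 and 102 FPKM at 8 DAP, 9.37 and 0 at 14 DAP, with 0 and 16.1 at 20 DAP. GRMZM2G097851 (LOC100284531) stood at 37.7 and 41.3 FPKM at 8 DAP, 0 and 16.1 at 14 DAP, with 3.98 and 12.6 at 20 DAP. In each of these the 14 and 20 DAP values of MATZ overlap, so no order between the later ages can be read. GRMZM2G157241 stood at 37.2 and 34.4 FPKM at 8 DAP, 1.70 and 0 at 14 DAP, with 0 and 12.3 at 20 DAP. GRMZM2G101282 (LOC100274665) stood at 37.7 and 68.5 FPKM at 8 DAP, 9.14 and 4.61 at 14 DAP, with 0 and 11.9 at 20 DAP in MATZ. It was listed in all 6 BETL libraries, at 3.86 to 12.8 FPKM, one of 5 members with a BETL mean of at least 10 FPKM at 8 DAP.

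In all 27 genes both MATZ libraries at 8 DAP lay above the 6 libraries of MATZ at 14 DAP, MATZ at 20 DAP and BETL at 8 DAP. This held for 0 of the 12 others. Over all gene models it held for 3.46%, and for 12.1% of the 3373 with a MATZ 8 DAP mean of at least 30 FPKM. The rule used these contrasts, so the count describes the choice of members.

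The 12 members that rest on replicate 2 differed from the 27 in gene span and in RefSeq records, which the rule did not name. FPKM is scaled to length, so span is not free of a rule on FPKM. Their gene models were short, with a median span of 258 bp (168 to 1239), against 1097 bp (206 to 6216) for the 27 genes. The median was 2721 bp for all models with a MATZ 8 DAP mean of at least 30 FPKM and 2439 bp for the whole table. Models at that level that were at 0 in replicate 1, members or not, had a median span of 285 bp. Of these, 23 spanned at most 500 bp, so short models are not particular to the members. Of the 12, 10 span at most 500 bp, and 1 matches a RefSeq record (GRMZM2G439668, LOC100280886), against 16 of the 27. Among all 3373 models at that level 81.3% match a record.

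In 10 of the 12 genes MATZ 8 DAP replicate 2 was the only library of the 12 above 0. They were GRMZM2G703370 at 175 FPKM, GRMZM5G833625 at 149, GRMZM5G862392 at 128, AC191328.3_FG002 at 115, GRMZM2G132384 at 111, GRMZM2G439668 at 101, GRMZM2G701761 at 66.0, GRMZM2G117940 at 65.1, GRMZM2G702141 at 63.4 and GRMZM5G890472 at 61.3 FPKM. GRMZM2G701372 stood at 109 FPKM there, 23.8 in MATZ 20 DAP replicate 2 and 3.11 in BETL 20 DAP replicate 1. GRMZM2G149171 stood at 108 FPKM there and 10.6 in BETL 8 DAP replicate 1. Neither of these 2 genes had support in both libraries of any group.

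This library stood apart from the others in such genes. Over all models, 10 genes at 60 FPKM or more were above 0 in MATZ 8 DAP replicate 2 alone, and all 10 are members, as the rule admits any gene of this kind. The other 11 libraries held 0 to 2 genes of this kind each. At 30 FPKM or more the counts were 31 in this library and 0 to 10 in the others. Of the 3373 models with a MATZ 8 DAP mean of at least 30 FPKM, 27 were at 0 in replicate 1, 12 of them members, and 0 were at 0 in replicate 2. A value of 0 in 1 of the 2 libraries was thus found in 30.8% of the members and in 0.800% of all models at that level.

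**Figure D4:**
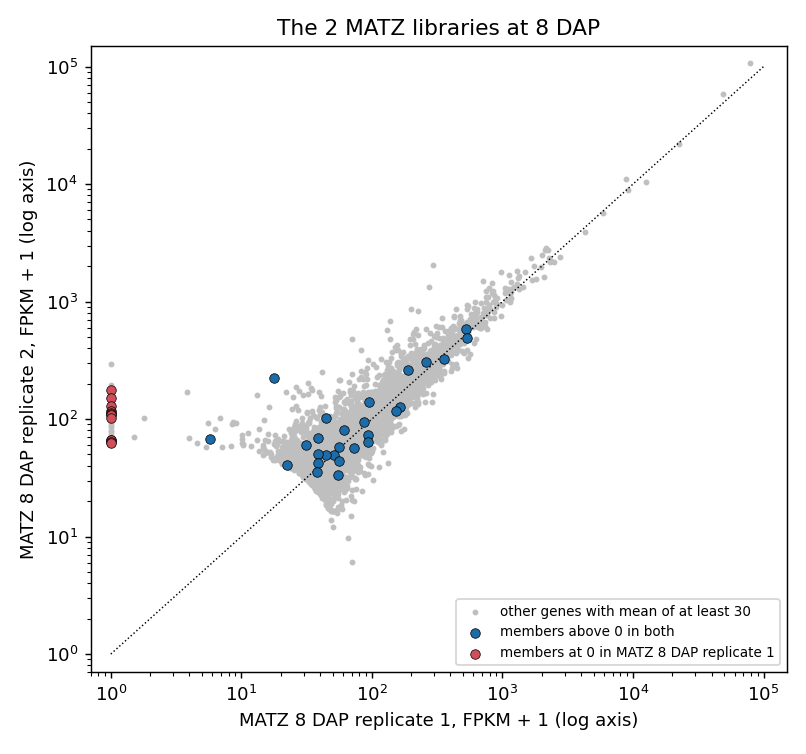
FPKM + 1 of MATZ 8 DAP replicate 1 (x) and replicate 2 (y), on log axes, for genes with a mean of at least 30 FPKM; members are coloured and the dotted line marks equal values. The 27 members above 0 in both libraries lie along the cloud, except AC207189.4_FG002 and GRMZM2G065157, and the 12 others stand at the left edge at 61.3 to 175 FPKM in replicate 2.

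Depth per library is not stated, but low values give a hint. The commonest product of FPKM and gene span among models of up to 3000 bp was 2887 in replicate 1 and 6172 in replicate 2 of MATZ at 8 DAP. If this step is 1 fragment, which is an inference, the libraries hold about 346335 and 162015 fragments, and a short model reaches a high FPKM with few of them. On that reading the 12 genes had 2.29 to 22.4 steps in replicate 2, and 9 of the 12 had 5.11 or fewer. The 22.4 belong to GRMZM2G132384, whose model spans 1239 bp. Counting by step takes the span as the transcript length, so these numbers are rough. The steps of the 12 genes are not whole numbers. Some models of up to 500 bp also lay below 1 step, with lowest values above 0 of 0.558 FPKM in replicate 2 and 0.194 in replicate 1. The step can therefore not be 1 fragment for every model, and the library sizes are uncertain. Models of up to 500 bp above 0 had a median of 39.5 FPKM in replicate 2 and 10.7 in replicate 1. A level of 60 FPKM or more in 1 library with 0 in the other was found in 23 such models for replicate 2 and in 0 for replicate 1. Whether depth, short models or the library itself made these values was not tested.

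By the median the 27 genes had no such imbalance. Replicate 2 was the higher for 16 of the 27, and the median ratio of replicate 2 to replicate 1 was 1.10, against 1.03 for the 3346 models at that level found in both. A gap of over 4-fold was found in 2 of the 27, or 7.41% (AC207189.4_FG002 and GRMZM2G065157), with replicate 2 the higher in both. Among the 3346 it was found in 60, or 1.79%, in 56 of which replicate 2 was the higher.

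With the same rule and the tissues exchanged, 35 genes peaked in BETL at 8 DAP, and 1 of these was at 0 in a BETL library at 8 DAP, against 12 of 39 in MATZ. The members lay apart in the genome. They were spread over all 10 chromosomes, with 1 to 6 on each, and the closest 2, GRMZM2G423202 and GRMZM2G537039 on chromosome 3, were 631196 bp apart. For 17 of 39 the nearest model was at 0 in both MATZ libraries at 8 DAP, and for 7 it had a mean of at least 30 FPKM. Of all 39423 models, 20487 and 17896 were above 0 in replicates 1 and 2 of that group, and 3373 had such a mean. The same counts for neighbours of all models were not made, so neither is read as a trait of the members. The nearest to GRMZM2G059064, GRMZM2G059029, had MATZ means of 305 FPKM at 8 DAP, 843 at 14 DAP and 841 at 20 DAP, lowest at the age at which the member was highest. This neighbour was singled out after its values were seen.

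The rule set no order between the later ages, but it held both MATZ ages under the 8 DAP level and limited the ratios to BETL, so the change between them is not free of the choice of members. The values describe single genes, and nothing about the set is read from their number. MATZ at 20 DAP was set against MATZ at 14 DAP with limma on log2(FPKM + 1) over all genes, in 1 fit of 12 libraries. Of the 39 members, 29 passed the filter of at least 1 FPKM in at least 2 libraries, some of them only through their 8 DAP values, and 10 did not. The 29 are all 27 genes found in both MATZ 8 DAP libraries with GRMZM2G701372 and GRMZM2G149171, and the 10 are those listed in 1 library alone. Of the 29, 10 were at 0 in all 4 MATZ libraries compared and had no value to test, which leaves 19. By Benjamini-Hochberg adjusted p under 0.05, 1.47% of the 24213 genes tested differed (0.772% higher and 0.698% lower at 20 DAP). Among the members 3 of 29 passed, 1 higher and 2 lower, all from the 27 genes and the 19 with a value. An unadjusted p under 0.05 by limma was found for 8 members and for 13.1% of all genes tested.

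The gene that was higher at 20 DAP was GRMZM2G003970, at 98.8 and 138 FPKM, against 30.4 and 29.7 at 14 DAP. Its log2 difference was 1.93 ± 0.36 (SE), with a limma adjusted p of 0.0342. A MATZ mean at 20 DAP above that at 14 DAP was found in 8 members, and among these only the call of this gene passed. It had the highest early level in the set, and at 20 DAP it was still under its 8 DAP level. In BETL its log2 difference of 20 DAP over 14 DAP was 0.17 ± 0.36 (limma adjusted p = 1), and the difference between the tissues in this change was 1.75 ± 0.52 (limma adjusted p = 0.270). The call was lost without any 1 of the 4 libraries compared (limma adjusted p 0.0585 to 0.172) and with median-of-ratios scaling (0.0522), quantile normalization (0.0595) or no mean trend (0.10).

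The genes that were lower at 20 DAP were GRMZM2G084979 and GRMZM2G423139, both at 0 in both libraries then, against the 14 DAP values given above. Their limma log2 differences were −4.58 ± 0.76 (adjusted p = 0.0212) and −3.82 ± 0.78 (adjusted p = 0.0480), and their size depends on the 1 added to each value, so it is no fold. The call of GRMZM2G084979 held without MATZ 14 DAP replicate 2 (limma adjusted p = 0.0333) and was lost without MATZ 14 DAP replicate 1, MATZ 20 DAP replicate 1 or MATZ 20 DAP replicate 2 (0.0576 to 0.0920). That of GRMZM2G423139 was lost without any 1 of the 4 (0.0927 to 0.153), with a pseudocount of 0.1 (0.106), with no filter (0.0562) and with median-of-ratios scaling (0.0668). A fit on the 2 compared groups alone called 0 of the 3 (limma adjusted p 0.265 to 0.329).

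BETL at 20 DAP was set against BETL at 14 DAP in the same fit. The rule capped BETL at 20 DAP at 3 times MATZ, so this change is not free of the choice either, and 10 of the 29 members were at 0 in all 4 libraries compared. Of the 29, 0 passed, against 0.801% of all genes tested (0.277% higher and 0.525% lower at 20 DAP), and 4 had an unadjusted p under 0.05 by limma, which 8.62% of all genes had. These 4 were GRMZM2G431288, GRMZM2G057852, GRMZM2G018716 and GRMZM2G410991, with log2 differences between −2.68 and −1.83, all lower at 20 DAP. The difference between MATZ and BETL in this change was also bound by the rule, which limited the ratio of the tissues at these ages, and 7 of the 29 members were at 0 in all 8 libraries. By limma 0 of the 29 passed, against 0.0372% of all genes (0.0289% positive and 0.00826% negative, as MATZ minus BETL), and 6 had an unadjusted p under 0.05, which 9.66% of all genes had. Over all genes the median of this difference was 0.14, and 0.00 with median-of-ratios scaling.

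The values just inside and just outside the rule lay close together. GRMZM2G074611 was inside with a ratio of 4.08 to MATZ at 14 DAP and GRMZM2G057852 with a ratio of 4.28 to BETL at 8 DAP. GRMZM5G890472 and AC209636.2_FG003 were inside with MATZ 8 DAP means of 30.6 and 30.7 FPKM, while GRMZM5G889225, GRMZM2G423863 and GRMZM2G461777 were outside with 29.7, 29.4 and 29.04 FPKM. GRMZM2G099454, at 1095 and 1271 FPKM in MATZ at 8 DAP, was outside with a ratio of 3.72, since its mean was still 317 FPKM at 14 DAP before 13.5 at 20 DAP. Its early level was above that of any member.

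Genes that mark other tissues had sums that differed with age in MATZ. The 9 BETL marker genes summed to 2227 and 2883 FPKM in MATZ at 8 DAP, 7270 and 6658 at 14 DAP, then 11513 and 10173 at 20 DAP, with 1 (tcrr1) at 0 at 8 DAP. Not all followed the sum: mn1, a cell wall invertase gene, had MATZ means of 1114 FPKM at 8 DAP, 511 at 14 DAP and 384 at 20 DAP, and bap2 and meg1 were lowest at 20 DAP. In BETL they summed to 41903 and 49698 FPKM at 8 DAP and to between 48139 and 91419 later. The 13 starchy endosperm genes summed to 63.3 and 77.9 FPKM in MATZ at 8 DAP, 6997 and 6649 at 14 DAP, then 437 and 646 at 20 DAP, with 4 of 13 at 0 at 8 DAP. The 4 matched markers of maternal ovule tissue (zag1, zag2, mads4 and kn1) summed to 730.4 and 807 FPKM in MATZ at 8 DAP, 1431 and 1495 at 14 DAP, with 1929 and 1884 at 20 DAP. The maternal markers had their lowest MATZ sum at the age at which the members had their highest, as did the BETL and starchy endosperm markers. The same held for embryo markers (14.1 and 34.4 FPKM at 8 DAP) and vascular markers (91.9 and 46.0). It is therefore not particular to the maternal markers. Sums for the embryo surrounding region overlapped between 8 DAP (12.4 and 17.1 FPKM) and 20 DAP (53.8 and 14.9). Pericarp markers summed to at most 9.86 FPKM in any MATZ library. The part of tissue makeup in the members' levels was not tested.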

How the data were processed

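A single table of FPKM values was deposited, and per the file headers each library has a column in it. The submitters' processing notes name TopHat2, Bowtie2 and Cufflinks. For versions, settings, genome build, annotation release and strand, nothing is given in the sources used here. Gene coordinates come from that table. How the authors' counting treated reads that fit more than 1 gene is not stated, so FPKM of members with close copies is uncertain. FPKM totals of the libraries lay between 731024 and 987477, and depth in reads is unknown.

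Members were found by the rule on group means. The members, rule and gene lists were chosen with earlier results of these data known. All 39 members were named. Tests used limma (version 3.58.1, under R 4.3.3; linear fit with empirical Bayes moderation and a mean trend) on log2(FPKM + 1), with 6 group means, 6 residual and 3.79 prior degrees of freedom, genes of at least 1 FPKM in at least 2 libraries and Benjamini-Hochberg adjustment over 24213 genes. The fit was tested on simulated data. Log2 differences of low genes are understated. RefSeq records (assembly Zm-B73-REFERENCE-NAM-5.0) gave symbols alone, for 18771 of 39423 IDs. A planned count of promoter motifs was not run. Tables used Python 3.11.15, pandas 2.3.3, numpy 2.4.6 and matplotlib 3.10.9. Alternatives were other pseudocounts, filters, scalings, a replicate block, fits on the compared groups, and leaving out each library.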

Additional observations from a re-analysis of the deposited data

How the results depend on the processing

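The set of 39 depended most on MATZ 8 DAP. Without replicate 1 of that group the rule found 104 genes (38 shared with the 39), and without replicate 2 it found 32 (22 shared). Over all libraries left out in turn the count ran from 32 to 104. It was 111 with a MATZ 8 DAP mean of at least 15 FPKM, 18 with at least 60, and 15 when the lower MATZ 8 DAP library had to be 4 times the higher library of each other group. Chosen after seeing the data, a level of at least 30 FPKM in both libraries left 24, and a level above 0 in both left 27. Median-of-ratios scaling gave 57 genes (37 shared) and quantile normalization 50 (37 shared).

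Members called for MATZ at 20 against 14 DAP numbered 3, but 1 with median-of-ratios scaling, 1 with the replicate block, 0 with the compared groups alone and 0 to 1 with a library left out. For BETL and for the difference between tissues the number was 0 under every setting run. Over all genes, limma called 356 for MATZ, but 622 with a pseudocount of 5, 0 with the compared groups alone and 85 to 322 with a library left out (85 without MATZ 14 DAP replicate 2 and 119 without MATZ 20 DAP replicate 2). For BETL it called 194, but 331 with a pseudocount of 0.1, 128 at 5 FPKM or more, 108 with the replicate block, 48 with no mean trend, 0 with the compared groups alone and 26 to 205 with a library left out (26 without BETL 14 DAP replicate 1, 32 and 28 without BETL 20 DAP replicates 1 and 2). For the difference between tissues it called 9, but 116 with a pseudocount of 0.1, 3 with median-of-ratios scaling, 1 with the replicate block, 138 with the compared groups alone and 0 to 29 with a library left out (29 without MATZ 14 DAP replicate 1, 7 without MATZ 20 DAP replicate 1, 1 without MATZ 20 DAP replicate 2 and 0 without any of the other 5). The BETL calls split into 67 higher and 127 lower, but 166 and 165 with a pseudocount of 0.1 and 124 and 81 without BETL 14 DAP replicate 2. The MATZ calls split into 187 higher and 169 lower, but 135 and 192 with quantile normalization, and those of the difference between tissues into 7 and 2, but 1 and 2 with median-of-ratios scaling. The causes were not tested. Beside counts of 0 on the compared groups, 2714 genes in MATZ and 2958 in BETL had an unadjusted p under 0.05 by limma. Whether replicates of the same number are paired is not stated in the labels. Differences between replicates correlated at −0.0168 to 0.0164 between groups, so no strong shared deviation was seen. A weak one could be hidden by noise in low values, so pairing is not excluded. With the replicate block GRMZM2G003970 and GRMZM2G423139 had limma adjusted p of 0.0546 and 0.0730. Without MATZ 20 DAP replicate 1, GRMZM2G057852 passed as lower (adjusted p = 0.0246). No log2 difference followed here changed sign.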
